A study of Mus musculus with 16 samples.

Results

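The mucins described here are the 6 genes Muc1, Muc2, Muc3, Muc4, Muc13 and Muc20, taken by name from the 45513 genes counted in colon epithelium. All 6 are listed in every file, although Muc20 had 0 reads in 1 tdTom− library, and all 6 passed the filter on low counts. Muc20 passed it only through its tdTom+ libraries, since no tdTom− library held more than 4 of its reads. The libraries came from 8 C57BL/6 mice, males and females aged 8 to 16 weeks, that were homozygous for Atoh1(WT)CreERT2 and heterozygous for Rosa26tdTom. In these mice the Cre recombinase is made from the Atoh1 locus, tamoxifen activates it, and recombined cells and their progeny then carry the tdTom reporter. Every mouse was given 1 mg of tamoxifen per day on 3 days, per the labels and the study's methods for defining the secretory signature. Live EpCAM+ epithelial cells of each colon were divided by the reporter, which gave 8 tdTom+ and 8 tdTom− libraries, paired by mouse. No animal without the Cre allele, the reporter or tamoxifen is among them, so both populations share all of these.

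Mucins are large glycoproteins whose serine- and threonine-rich repeats carry dense O-linked sugars. Gel-forming mucins are secreted and build the mucus, and in the colon Muc2 from goblet cells is the main one. Membrane mucins such as Muc1, Muc3, Muc4 and Muc13 stay anchored at the apical surface, where they form the glycocalyx, and their cytoplasmic tails can take part in signalling.

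Total counts ran from 16482530 to 24218367 in tdTom+ and from 18318172 to 45791503 in tdTom− libraries, and the deepest was the tdTom− library of mouse 4. No other tdTom− library exceeded 20668605 counts. Atoh1, the gene whose locus drives the label, was higher in tdTom+ cells by 4.54 on the log2 scale (standard error 0.15). All 7 goblet markers examined were higher in tdTom+ cells and all 7 absorptive markers were lower, with medians of 3.82 and −4.65. The 7 enteroendocrine markers, although of a secretory lineage, had a median of −1.41 and were lower there in 7 of 7 cases. Of the other marker lists, 3 of 3 deep crypt secretory genes were higher in tdTom+ cells. Lower there were 4 of 5 tested tuft genes, 3 of 6 stem and proliferating genes, 2 of 3 tested immune genes and the 1 stromal or endothelial gene tested. With the mouse as a replicate block, 6 of 6 stem and proliferating genes and 3 of 3 tested immune genes were lower in tdTom+ cells. Among all genes tested, the fit without that block called 25.5% higher and 25.5% lower. The share that the block fit called is not given here, so its counts have no background beside them. Immune markers summed to 3.01 to 5.89 CPM (counts scaled to a common library size) in tdTom+ and 5.77 to 27.9 CPM in tdTom− libraries, and stromal and endothelial ones to 0.868 to 1.43 and 1.90 to 3.36 CPM. The mitochondrial share of the counts was 2.23% to 6.92% in tdTom+ and 3.74% to 9.97% in tdTom− libraries, and it was lower in the tdTom+ library of 8 of 8 mice. The part of these markers and of the mitochondrial share in the mucin results was not tested.

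Of the 6 mucins, 4 were higher in tdTom+ cells (Muc2, Muc20, Muc1 and Muc4), 1 was lower (Muc3) and 1 did not pass the test (Muc13). The threshold was a Benjamini-Hochberg adjusted p of 0.01 in edgeR's quasi-likelihood test over 15841 genes, at which 25.5% of all genes tested were higher and 25.5% lower. The median log2 fold change, tdTom+ minus tdTom−, was 2.15 over the 6 mucins and 0.0039 over all genes tested. The members were chosen with results of these data known, so these counts describe the members and carry no test of their own. Muc20 passed the filter only through the population where it was high, so its call could hardly have gone the other way. How many of all genes tested had groups without overlap, or the same direction in every mouse, was not counted. Where these traits are given below, they are therefore not particular to the mucins. In sorted bulk RNA, a population with fewer cells of a type and one with less RNA per cell cannot be told apart.

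**Figure D1:**
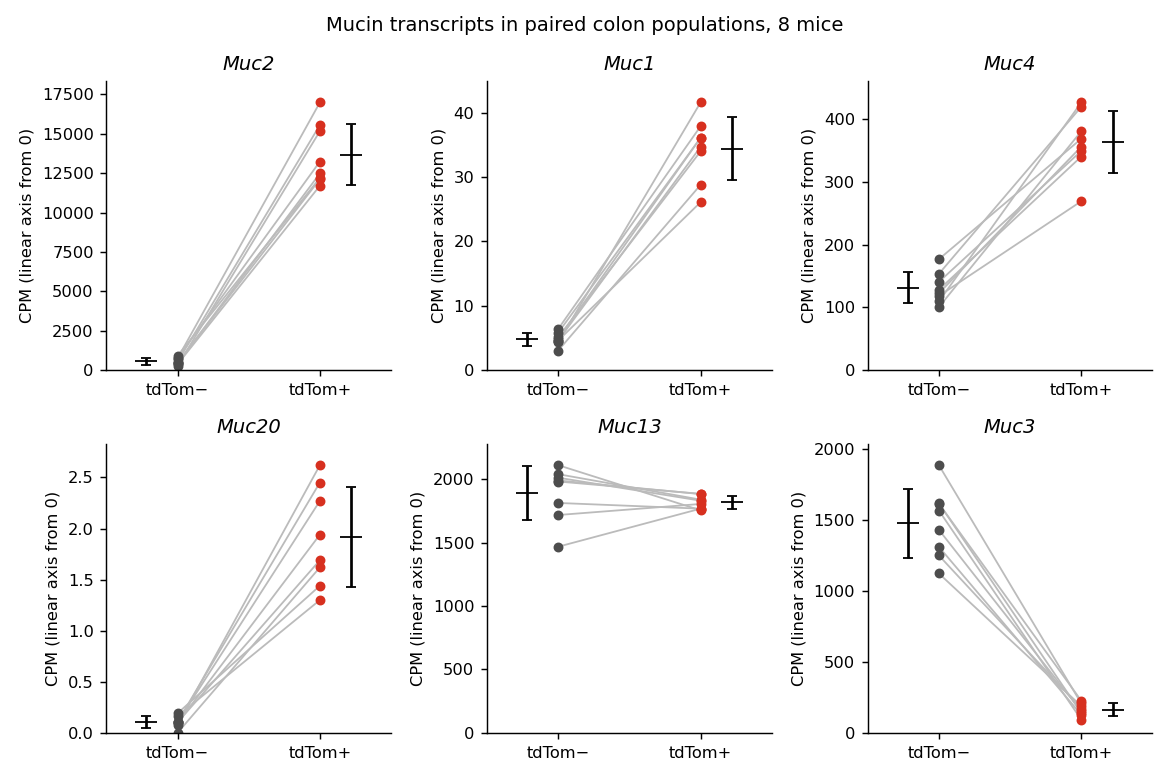
CPM of each mucin (y axis, linear from 0, a separate scale for each panel) in the tdTom− (grey) and tdTom+ (red) library of each of 8 mice, with lines joining the libraries of a mouse and bars giving the mean and SD. Muc2, Muc1, Muc4 and Muc20 are higher in tdTom+ cells of 8 of 8 mice and Muc3 is lower in 8 of 8, without overlap of the groups, whereas the Muc13 values overlap. The share of all genes tested that do likewise was not counted.

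Muc2, the gel-forming mucin of colonic mucus, had the largest fitted change of the 6. Its interval overlaps that of Muc20, 3.58 to 4.74, and the difference between these genes was not tested. The gene lies on chromosome 7 of GRCm38 (chr7:141690340-141754693, plus strand), and its counted exons span 7127 bases. In tdTom− libraries Muc2 was at 278.4 CPM at the lowest, 488.7 at the median and 907.5 at the highest. In tdTom+ libraries these values were 11699, 12855 and 16981 CPM. Every tdTom+ library thus stood above every tdTom− library, and the ratio of the group means was 24.5. Fitted tdTom+ minus tdTom−, the log2 difference was 4.61 (standard error 0.22, 95% interval 4.15 to 5.08, adjusted p = 2.63e-13, edgeR). Muc2 varied more among mice in tdTom− cells, with a coefficient of variation of 39.1%, than in tdTom+ cells, where it was 14.3%. The lowest tdTom− value was that of mouse 4 and the highest that of mouse 7. GENCODE marks the Muc2 locus as fragmented in this assembly, so its counts come from the exons that are annotated and not from the whole transcript.

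The sequence upstream of the start site is given for the 4 mucins that were higher in tdTom+ cells and for Muc13, which did not pass the test, since Atoh1 is a basic helix-loop-helix factor and such factors bind E-boxes (CANNTG). Each is the 250 bases before the start in RefSeq (GRCm38.p6), read 5′ to 3′ on the strand of the gene. Capitals mark CAGCTG and CAGATG on either strand, the latter read as CATCTG on the other strand, and TATAAA as written. The motifs cannot overlap one another.
Muc2, chr7:141690090-141690339, plus strand: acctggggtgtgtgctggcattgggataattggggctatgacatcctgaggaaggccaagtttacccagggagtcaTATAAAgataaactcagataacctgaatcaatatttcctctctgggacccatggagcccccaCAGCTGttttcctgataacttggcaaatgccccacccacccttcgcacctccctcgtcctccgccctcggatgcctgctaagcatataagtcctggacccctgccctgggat
Muc1, chr3:89228806-89229055, plus strand: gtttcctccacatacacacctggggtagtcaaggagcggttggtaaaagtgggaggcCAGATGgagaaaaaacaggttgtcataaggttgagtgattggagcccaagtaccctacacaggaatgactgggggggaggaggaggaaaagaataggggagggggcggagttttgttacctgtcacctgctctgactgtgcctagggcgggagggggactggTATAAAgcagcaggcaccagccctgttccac
Muc4, chr16:32735636-32735885, plus strand: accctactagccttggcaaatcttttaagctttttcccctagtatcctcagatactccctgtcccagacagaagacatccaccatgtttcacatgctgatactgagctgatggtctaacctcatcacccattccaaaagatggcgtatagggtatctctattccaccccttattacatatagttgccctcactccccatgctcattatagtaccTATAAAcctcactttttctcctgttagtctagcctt
Muc20, chr16:32797436-32797685, minus strand: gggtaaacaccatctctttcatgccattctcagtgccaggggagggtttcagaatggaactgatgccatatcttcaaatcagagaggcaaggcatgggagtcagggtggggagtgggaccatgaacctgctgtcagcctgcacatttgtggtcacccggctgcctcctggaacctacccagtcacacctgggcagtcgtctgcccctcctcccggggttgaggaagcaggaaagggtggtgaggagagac
Muc13, chr16:33793787-33794036, plus strand: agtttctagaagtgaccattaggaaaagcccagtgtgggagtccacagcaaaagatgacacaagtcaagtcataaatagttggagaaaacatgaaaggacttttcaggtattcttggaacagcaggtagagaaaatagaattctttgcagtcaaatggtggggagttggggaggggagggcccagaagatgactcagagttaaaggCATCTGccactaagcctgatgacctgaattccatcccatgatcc

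Muc2 held CAGCTG 112 bases before its start and TATAAA 174 bases before it. Muc1 held CAGATG 193 bases and TATAAA 31 bases before its start, Muc4 held TATAAA 36 bases before its start, and Muc13 held the CAGATG motif on the other strand 44 bases before it. Muc20 held none of these in the window. Other forms of CANNTG were neither searched for nor marked, and the windows hold some. Examples are cacctg in Muc20 and Muc1 and cacatg in Muc4, so an unmarked window is not one without E-boxes. Over all 32851 RefSeq promoters of the same length, 13.0% held CAGCTG, 14.4% held CAGATG and 7.59% held TATAAA. These are matches of letters and not sites of binding, and no binding data were analysed here. RefSeq also lists a start of Muc13 452 bases further downstream, whose window held none of the motifs. The RefSeq start of Muc3 lies 16724 bases upstream of the gene model counted in the files, so its promoter is not shown.

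Muc1, a membrane mucin with a cytoplasmic tail that takes part in signalling, was at a low level in both populations and higher in tdTom+ cells. It lies on chromosome 3 (chr3:89229057-89233381, plus strand). In tdTom− libraries it ran from 3.05 to 6.41 CPM with a median of 4.72, and in tdTom+ libraries from 26.1 to 41.6 CPM with a median of 35.4. The groups did not overlap. Fitted tdTom+ minus tdTom−, the log2 difference was 2.83 (standard error 0.12, 95% interval 2.58 to 3.09, adjusted p = 4.8e-14, edgeR), and the difference within a mouse ran from 2.48 to 3.24.

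Muc4, a large membrane mucin with epidermal growth factor-like domains that can bind the receptor Erbb2, was higher in tdTom+ cells. Its gene spans chr16:32735886-32782391 on the plus strand, and 11757 exonic bases were counted. Muc4 ran from 100.5 to 176.8 CPM with a median of 125.3 in tdTom− libraries. In tdTom+ libraries it ran from 269.2 to 426.6 CPM with a median of 362.4, so that the lowest tdTom+ library still exceeded the highest tdTom− one. Fitted tdTom+ minus tdTom−, the log2 difference was 1.47 (standard error 0.11, 95% interval 1.24 to 1.70, adjusted p = 2.65e-10, edgeR).

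Muc20, a cell-surface mucin reported to bind the receptor Met, was barely counted in tdTom− cells. It lies next to Muc4 on the opposite strand (chr16:32777419-32797435), and 627 of its 4027 exonic bases are also exonic in Muc4. The counting used strand, which keeps the reads of the neighbours apart as far as the libraries preserve strand. The tdTom− libraries held 0 to 4 reads of Muc20 each, 19 in all, and the tdTom+ libraries held 24 to 55, 297 in all. On the CPM scale this was 0 to 0.191 against 1.30 to 2.62, without overlap. The fitted log2 difference was 4.16 (standard error 0.28, adjusted p = 4.31e-11, edgeR). Muc20 passed the filter on low counts only through its tdTom+ libraries, so this p-value is no independent support for the direction. The ratio of the summed reads per depth was 19.1, with an exact 95% interval of 12.0 to 32.2 that covers counting error only. Muc20 had 0.336 to 0.688 reads per 100 Muc4 reads in tdTom+ libraries and 0 to 0.175 in tdTom− libraries, the latter on 0 to 4 Muc20 reads each. Reads in the shared bases were not counted apart, so the part of Muc4 transcripts in the Muc20 counts was not tested.

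Muc13, a membrane mucin of the apical surface with epidermal growth factor-like domains, did not pass the test. It lies on the same chromosome (chr16:33794037-33819934, plus strand). Its level was 1468 to 2111 CPM with a median of 1986 in tdTom− libraries, and 1755 to 1885 CPM with a median of 1818 in tdTom+ libraries. The tdTom+ values lay inside the range of the tdTom− values, and the tdTom+ level was the higher one in 2 of 8 mice. Fitted tdTom+ minus tdTom−, the log2 difference was −0.06 (standard error 0.07, adjusted p = 0.515, edgeR), and its 95% interval, 0.862 to 1.07 as a ratio, bounds the difference. The coefficient of variation among tdTom+ libraries was 2.83%, against 11.3% among tdTom− libraries, where mouse 4 was lowest.

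Muc3, a membrane mucin of the enterocyte brush border, was the member with a lower level in tdTom+ cells. The counted model lies at chr5:137134922-137149322 on the minus strand and holds 1943 exonic bases. In tdTom− libraries Muc3 was at 1125 CPM at the lowest, 1501 at the median and 1889 at the highest. In tdTom+ libraries these values were 93.7, 162.1 and 227.2 CPM. The groups did not overlap, and the ratio of the means was 9.0, tdTom− over tdTom+. Fitted tdTom+ minus tdTom−, the log2 difference was −3.17 (standard error 0.16, 95% interval −3.50 to −2.84, adjusted p = 5.31e-13, edgeR).

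**Figure D2:**
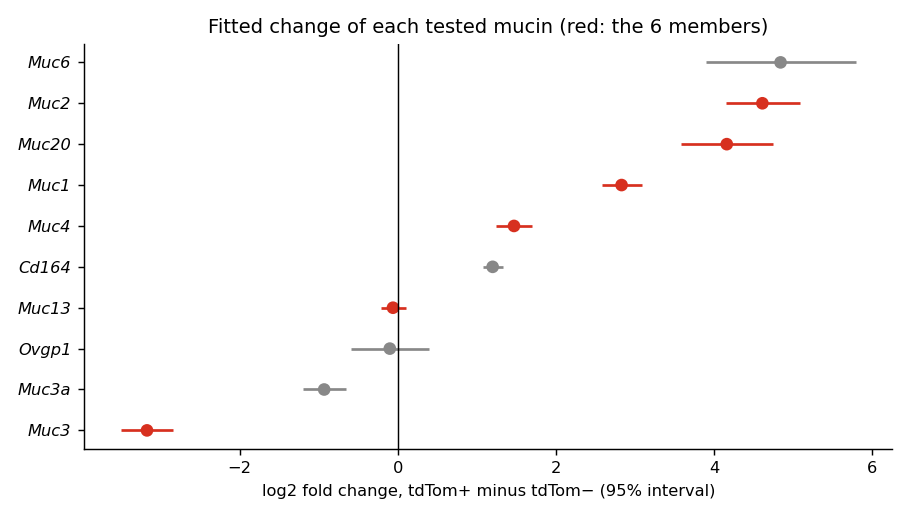
Log2 fold change, tdTom+ minus tdTom− (x axis), with its 95% interval for the 6 mucins (red) and the 4 other mucins with enough counts to test (grey). Muc2 at 4.61 and Muc3 at −3.17 are the extremes of the 6, and the interval of Muc13 includes 0.

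The mouse numbers in the labels fall in 3 ranges, which may mark batches. As renumbered here, they hold mice 1 to 3, mouse 4 and mice 5 to 8. Within mice 1 to 3 the log2 fold changes were 4.90 for Muc2, 3.00 for Muc1, 1.21 for Muc4, 4.03 for Muc20 and −3.52 for Muc3. Within mice 5 to 8 they were 4.25, 2.79, 1.68, 3.94 and −3.05 in the same order, and each of these passed the threshold in both ranges. Muc13 was at −0.09 and −0.10 and passed in neither. The difference between the ranges was not tested, and mouse 4 alone allows no fit.

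Levels of different genes were compared per length, as reads per kilobase of counted exon at a common library size (RPKM). In tdTom+ cells the order was Muc2, Muc13, Muc3, Muc4, Muc1 and Muc20, with mean RPKM of 1919, 598.0, 84.4, 30.9, 14.7 and 0.476. In tdTom− cells it was Muc3, Muc13, Muc2, Muc4, Muc1 and Muc20, with mean RPKM of 760.3, 622.7, 78.4, 11.2, 2.06 and 0.0261. Muc2 and Muc3 thus exchanged places around Muc13, whereas Muc4, Muc1 and Muc20 held the last 3 places in both populations. All 10 neighbouring pairs differed in the same direction in 8 of 8 libraries (exact sign-flip permutation test, two-sided, p = 0.00781 for each, the smallest that 8 mice allow, and 0.00781 after adjustment over the 10 pairs). The pairs and their direction were read from these same libraries, so the p-values describe the spread and give the order no independent support. The narrowest gap was that of Muc3 over Muc13 in tdTom− cells, 0.28 ± 0.19 on the log2 RPKM scale (SD, n = 8), and it was 0.01 in one library. The order rests on the exons annotated for each gene, which are incomplete for Muc2 and differ between annotations for Muc3.

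Together the 6 mucins took 1.32% to 1.99% of all counts in tdTom+ and 0.34% to 0.452% in tdTom− libraries. Muc2 made up 72.3% ± 2.64 of their summed RPKM in tdTom+ cells and 5.31% ± 1.98 in tdTom− cells (SD, n = 8 each). The share of Muc2 was higher in tdTom+ cells of 8 of 8 mice, by 67.0 points on average (exact permutation test within mice, two-sided, p = 0.00781, the smallest that 8 mice allow). Muc3 held 51.4% ± 3.65 in tdTom− and 3.19% ± 0.753 in tdTom+ cells, and Muc13 held 42.4% ± 2.95 and 22.8% ± 2.28 (SD, n = 8). The 5 mucins other than Muc2 summed to 728.5 ± 34.6 RPKM in tdTom+ and 1396 ± 174.8 RPKM in tdTom− cells (SD, n = 8), and their ranges did not overlap. Of these 5, Muc3 was at a mean of 84.4 RPKM in tdTom+ and 760.3 RPKM in tdTom− cells, and Muc13 at 598.0 and 622.7 RPKM. Muc1, Muc4 and Muc20 were higher in tdTom+ cells. The lower sum in tdTom+ cells is thus that of Muc3 and not of membrane mucins as a class. Shares of one sum move together, so the lower share of Muc13 in tdTom+ cells does not mean a lower level.

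**Figure D3:**
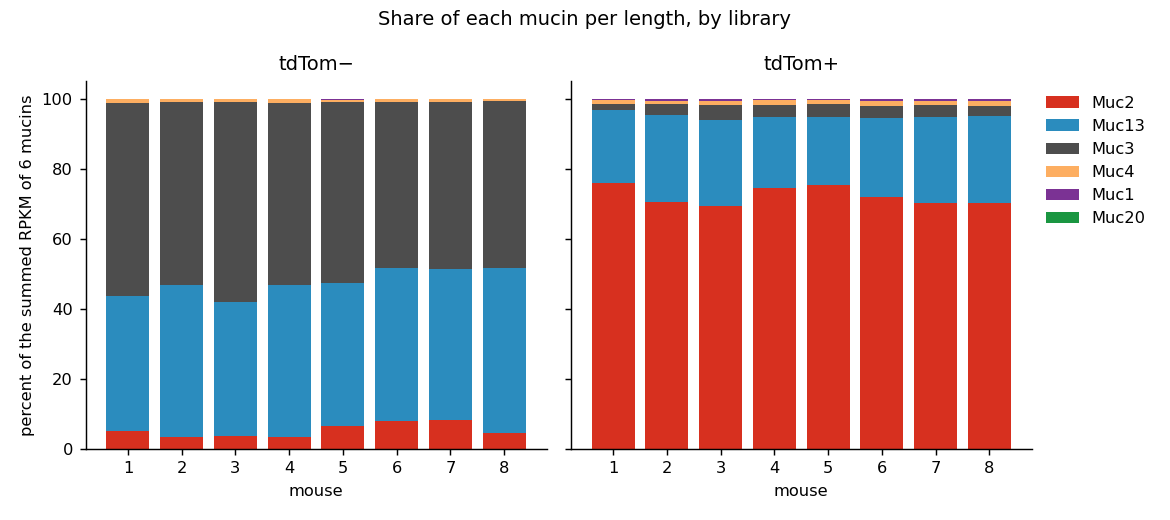
Percent of the summed RPKM of the 6 mucins (y axis, from 0) taken by each mucin in every library, by mouse (x axis), for tdTom− (left) and tdTom+ (right) cells. Muc2 takes 69.4% to 76.1% in tdTom+ libraries and 3.30% to 8.26% in tdTom− libraries.

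The level that remained in the lower population was expressed as a percent of the other population of the same mouse and set beside markers of the cell types. In tdTom− cells the median goblet marker was at 3.70% to 11.8% of its tdTom+ level, depending on the mouse. Muc2 was at 1.84% to 7.44% with a median of 3.61%, below the median goblet marker in 8 of 8 mice but within the spread of the markers. These ran by their medians from 2.83% for Spink4, which was below Muc2 in 7 of 8 mice, to 7.70% for Zg16. Muc1 was at 10.4% to 17.6% and Muc4 at 25.7% to 47.9%, both above it in 8 of 8 mice. Muc20, at 0% to 13.3%, was above it in 3 mice, on at most 4 tdTom− reads. In tdTom+ cells the median absorptive marker was at 3.13% to 5.68% of its tdTom− level, and Muc3 was at 5.97% to 16.9%, above it in 8 of 8 mice. The absorptive markers were spread as well, since Slc26a2, a sulfate transporter, had a median of 28.0% and Aqp8, a water channel, one of 2.92%.

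**Figure D4:**
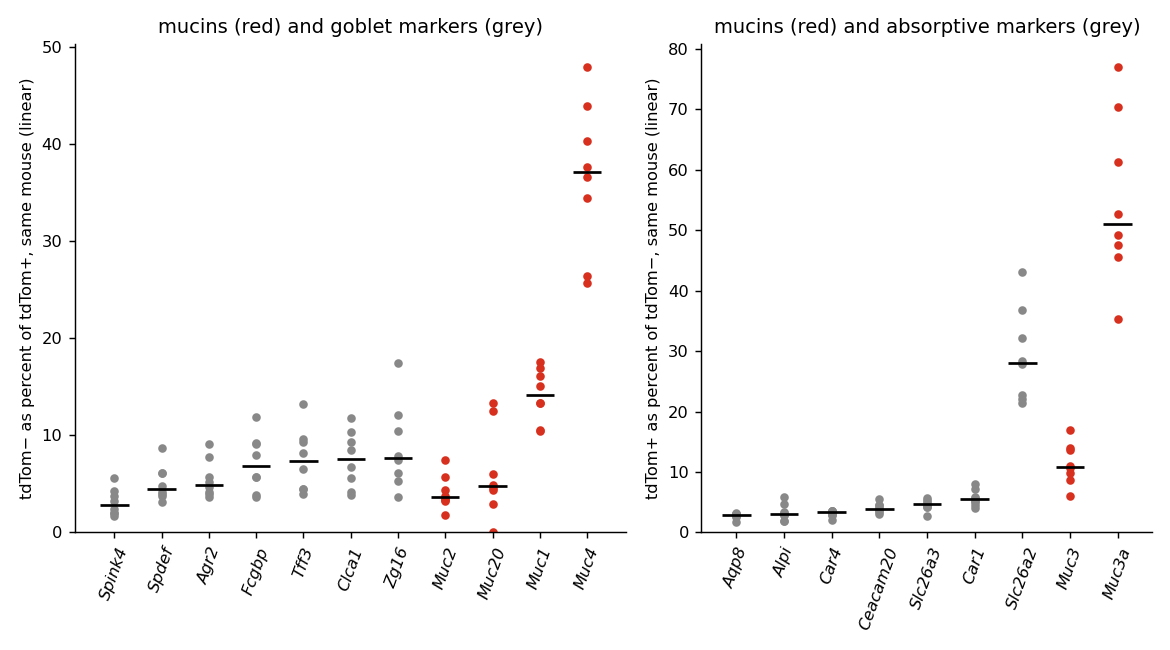
Left, level in tdTom− cells as a percent of the tdTom+ level of the same mouse (y axis, linear) for 7 goblet markers (grey) and the 4 mucins that were higher in tdTom+ cells (red). Right, level in tdTom+ cells as a percent of the tdTom− level for 7 absorptive markers (grey) and for Muc3 and its neighbour Muc3a (red), with a point for each mouse and a bar at the median. Muc4 (25.7% to 47.9%) and Muc3a (35.3% to 77.0%) kept the largest share.

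Of 14 further mucin genes listed, 13 were in the files and 4 had enough counts to be tested. Muc3a, which neighbours Muc3 on chromosome 5 (chr5:137208813-137212389, minus strand), was lower in tdTom+ cells. It ran from 69.2 to 156.3 CPM with a median of 98.5 in tdTom− libraries and from 43.8 to 67.7 CPM with a median of 50.4 in tdTom+ libraries. Its log2 difference was −0.93 (standard error 0.13, adjusted p = 2.6e-06, edgeR). The change of Muc3a was not tested against that of Muc3, and reads that match both of these related genes may have been lost or divided in the counting. GENCODE marks Muc3a as touching an error of the reference genome.

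Muc6, a gel-forming mucin known from gastric glands whose gene neighbours Muc2, had 16 reads in all tdTom− libraries and 412 in tdTom+ libraries. That was 0 to 0.209 CPM against 0.759 to 4.36 CPM, and the ratio of summed reads per depth was 31.5, with an exact 95% interval of 19.2 to 55.7 that covers counting error only. The fitted log2 difference was 4.84 (standard error 0.45, adjusted p = 8.66e-09, edgeR). Like Muc20, Muc6 passed the filter only through its tdTom+ libraries, so the same limit applies to its p-value. Cd164, which encodes the sialomucin endolyn, ran from 245.1 to 276.7 CPM in tdTom− and from 538.5 to 676.7 CPM in tdTom+ libraries, a log2 fold change of 1.20 (standard error 0.06, adjusted p = 2.92e-13, edgeR). Ovgp1 was at −0.10 and did not pass (adjusted p = 0.741, edgeR).

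The secreted partners of Muc2 in the mucus were all higher in tdTom+ cells, 8 of 8, with a median log2 fold change of 3.94. Among all genes tested 25.5% were higher. Spink4, of a family of protease inhibitors, was at 5.03, and Retnlb, a secreted antibacterial protein, at 4.42. Clca1, a metalloprotease that acts on Muc2, was at 3.73, and Zg16, a lectin-like protein that binds bacteria, was lowest at 3.56. Muc2, at 4.61, lay within the range of its partners. Of these 8 genes, 6 are also among the goblet markers used above, so both lists are not independent.

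Of 30 genes for the O-linked sugars of mucins, 28 had enough counts. Of these, 23 were higher in tdTom+ cells, 2 were lower and 3 did not pass, with a median of 1.54. Among all genes tested 25.5% were higher and 25.5% lower. A4gnt, which adds the terminal N-acetylglucosamine of gland-type mucin sugars, was at 5.38, from 2.12 to 8.22 CPM in tdTom− and from 104.1 to 210.3 CPM in tdTom+ libraries. B3gnt6, the core 3 synthase, was at 4.53. The 2 that were lower were Gcnt4, a core 2 branching enzyme, at −2.33, and St3gal1, which adds sialic acid to core 1, at −1.48. With the mouse as a replicate block 4 were lower rather than 2, since St3gal4 (−0.62, adjusted p = 0.00141, edgeR) and B4galnt2 (−0.31, adjusted p = 0.00713, edgeR) then passed as well, and these are named after their values were seen. Both of these add sugars to the ends of the chains. The shares of all genes above are from the fit without the block, so the count of 4 has no background beside it.

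Of 12 genes for partners and sheddases of membrane mucins 11 were tested, of which 2 were higher in tdTom+ cells and 7 lower, with a median of −0.32. Among all genes tested 25.5% were higher and 25.5% lower, so the 2 higher genes are no excess over that share. Lgals3, encoding galectin-3, which binds membrane mucins, was at −2.11 and Erbb2, the receptor that Muc4 can bind, at −1.30. Mmp14, a membrane metalloprotease able to shed Muc1, was at 0.69, and Egfr, the epidermal growth factor receptor, at 0.49. Erbb2 ran from 247.8 to 347.5 CPM in tdTom− and from 99.0 to 122.1 CPM in tdTom+ libraries, opposite in direction to Muc4.

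**Figure D5:**
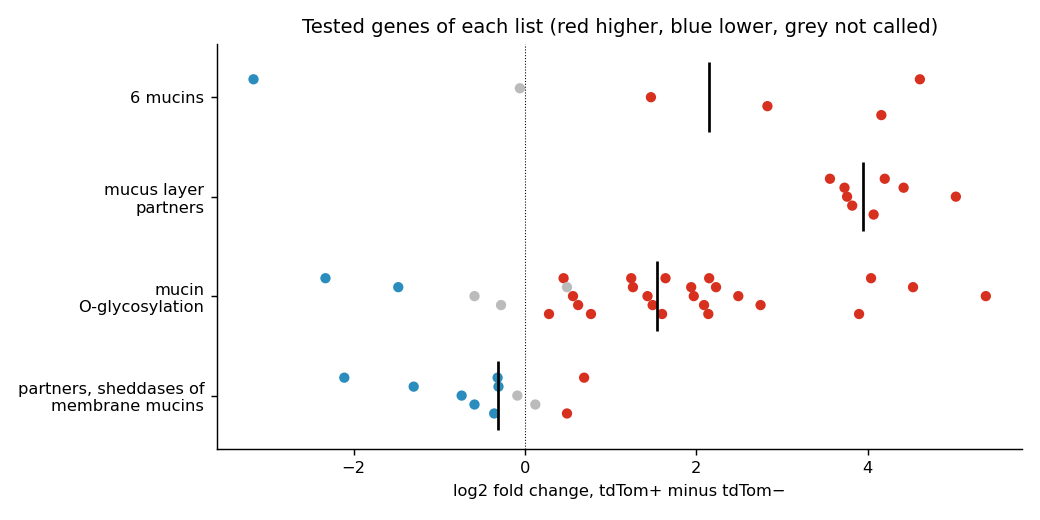
Log2 fold change, tdTom+ minus tdTom− (x axis), of each tested gene of the 6 mucins and of 3 gene lists (rows), coloured red where higher, blue where lower and grey where not past the threshold, with a bar at the median of each list. All 8 mucus layer partners lie right of 0, whereas 7 of 11 tested partners and sheddases of membrane mucins are blue.

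The genes whose profile over the 16 libraries was most like that of each mucin were found as those with the smallest root mean square difference in centred log2 CPM, among 13288 genes. For Muc2 they were Rapgef3, Hpd and Slc12a8, with differences of 0.21, 0.22 and 0.22. For Muc1 they were Hpn, Hsd11b2 and Cbln3 (0.24 each), and for Muc4 Fbxo21, Serinc3 and Ica1 (0.18 each). Muc3 was most like Selenbp1 (0.24), Gpr137b (0.26) and Selenbp2 (0.27), of which Selenbp1 and Selenbp2 are near-identical copies whose reads the counting may have divided. Muc20, with few reads, had no neighbour closer than 0.34, the value for Gm45837 and Irak3, followed by Slc2a10 at 0.36. Muc13 was most like Arhgef3, Etv3 and Spag9, at 0.07, 0.08 and 0.08, which are genes with little difference between the populations. The difference between the populations is part of every profile compared, so likeness includes it.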

How the data were processed

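The deposited files hold raw counts per gene for 16 libraries, 1 for each of both sorted populations of 8 mice. Per the labels and the methods of the study, stranded mRNA libraries were sequenced with single-end reads and aligned to GRCm38.p3 with TopHat2 2.1.1. The authors counted primary alignments on exons, on the reverse strand, with featureCounts (1.5.0-p1 in the file headers, whereas the submitters' processing notes give Subread 1.5.2). The exonic length of each gene was taken from the same deposited files. Groups and the number of the mouse behind each library came from the labels, and the mice are renumbered 1 to 8 here in the order of those numbers. Symbols came from GENCODE M21 and promoters from RefSeq, both for GRCm38.

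Counts were filtered (filterByExpr), scaled by TMM and compared with edgeR 4.0.16 in R 4.3.3 (glmQLFit, glmQLFTest), without a mouse term, as the study's methods give none. The standard error of a log2 difference is its size divided by the square root of F. Log2 CPM used a prior count of 2, and CPM used the TMM-scaled library sizes. Scaled by the total counts alone, without TMM, counts of 3 correspond to 0.0655 to 0.182 CPM. This marks the floor only roughly on the TMM-scaled CPM used elsewhere. Both libraries of a mouse shared deviations from the means of their groups, with correlations of 0.223 to 0.408 across genes against at most 0.168 between different mice, and the mouse number in the titles gives the pairing. No libraries were alike within sampling noise. Alternatives were the mouse as a block, DESeq2 1.42.0, limma-voom (limma 3.58.1), RLE size factors, total counts only, no filter, each mouse left out, and each range of mouse numbers alone. The fits were tested on simulated counts that held no mouse effect and far fewer changed genes, which cannot show their error rates under pairing.

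The members and lists were chosen with earlier results of these data known. Named genes are all members, Atoh1, every called gene of the other mucins, the 2 highest and 2 lowest genes of each further list, and the 3 nearest profiles of each member. Permutation tests were enumerated with Python 3.11.15, and their threshold was 0.05.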

Additional observations from a re-analysis of the deposited data

Results flagged for a closer look

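The tdTom− library of mouse 3 stood apart from the other tdTom− libraries for Muc20, at −3.42 log2 CPM, whereas the remaining 7 ran from −2.54 to −1.81. It held 0 Muc20 reads, where the others held 2 to 4, so the gap comes to 2 reads. Scaled by its total counts alone, without TMM, 3 counts would be 0.156 CPM. Its gap was 0.543 of the range of the group, above the critical value of Dixon's test for 8 samples. In all, 14 groups of 8 values were screened, of which chance alone flags about 0.7. Without mouse 3 the log2 fold change of Muc20 was 4.04, and it still passed the threshold (adjusted p = 2.14e-10, edgeR).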

How the results depend on the processing

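With the mouse as a replicate block, the paired fit gave log2 fold changes of 4.70 for Muc2, 2.82 for Muc1, 1.48 for Muc4, 4.2 for Muc20, −0.05 for Muc13 and −3.20 for Muc3, and it changed no call among the 6 mucins. In the lists it raised the number of lower O-glycosylation genes from 2 to 4. The share of all genes called is not given here for any alternative fit, so the list counts from these fits have no background. With mice 1 to 3 only, 1 partner or sheddase of membrane mucins was higher instead of 2, since Egfr was at 0.40 (adjusted p = 0.0487, edgeR), and 5 were lower instead of 7, since Ctnnb1 (adjusted p = 0.0321) and Src (adjusted p = 0.021, edgeR) were lost, on fewer samples. No alternative changed the call or direction of any of the 6 mucins, of the Muc2 share or of the order of levels, and the other list counts moved by no more than 1.5 times. Single O-glycosylation genes still changed their call. Galnt11 was lost with total counts only and with mice 1 to 3 only, St3gal4 passed with limma-voom, total counts only, no filter and without mouse 4 or 7, and B4galnt2 passed without mouse 1 and with mice 5 to 8 only. These genes are named after their values were seen. Over all alternatives the log2 fold change ran from 4.25 to 4.90 for Muc2, from 2.77 to 3.00 for Muc1, from 1.21 to 1.68 for Muc4, from 3.94 to 4.38 for Muc20, from −0.10 to −0.02 for Muc13 and from −3.52 to −3.05 for Muc3. The median of all genes was −0.0479 with total counts only. Without 1 mouse the mean difference in the Muc2 share ran from 66.4 to 67.7 points. It was 71.4 points with counts in place of counts per length, and exchanging libraries without regard to the mouse gave an exact p of 0.000155. Depth limits Muc20 and Muc6 in tdTom− cells.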

Other observations

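Among mucins too low to test, Muc5ac, the main gel-forming mucin of the gastric surface, had 6 reads over all tdTom+ libraries and 0 over all tdTom− libraries. Muc5b and Muc19, which are also gel-forming, had 4 reads each in tdTom+ and 0 in tdTom− libraries, and Muc15, a membrane mucin, had 0 in both. Mucl3 had 6 reads in tdTom+ and 10 in tdTom− libraries. Emcn, an endothelial sialomucin, had 0 and 5, and Mcam, a cell adhesion molecule, 36 and 15. These are totals over 8 libraries a group, and none of these genes was tested. Mcam had a mean of 0.233 CPM in tdTom+ and 0.068 CPM in tdTom− libraries. It was higher in tdTom+ cells of 7 of 8 mice, although the groups overlapped. For the others no difference between the populations can be read at this depth.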
